A study of Mus musculus with 10 samples.

Results

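Regions of open chromatin called with platinum drugs, but not in untreated cells or with interferon-γ alone, were examined. The cells were Myc-CaP, a cell line from a Myc-driven mouse prostate carcinoma. The regions were chosen from the ATAC-seq calls themselves. A merged region was taken when the Oxali, Cispl and Oxali + IFNγ peak lists each called it and neither the Ctrl nor the IFNγ list did, and such regions are named platinum-only below. They numbered 23528 of 211107 merged regions, which is 11.1% of them. Among the 31 possible combinations of calls this was the second most common, after the 85377 regions (40.4%) called in all 5 lists. The reverse combination, called in Ctrl and IFNγ and in none of the 3 platinum lists, held 1555 regions. The signal of platinum-only regions in Ctrl and IFNγ is not known, since the lists give values for called regions alone. A missing call therefore does not show closed chromatin.

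The 10 libraries fall into 5 groups of 2, all of the same male FVB/NJ line and treated for 48 h. Ctrl cells received no agent. Oxaliplatin was given at 2 µM (Oxali), as was cisplatin (Cispl). IFNγ was given at 1000 pg, with no volume in the labels, either alone (IFNγ) or together with 2 µM oxaliplatin (Oxali + IFNγ). The authors pooled the 2 libraries of a group before calling peaks, so each group gives 1 list, no spread between replicates is known and no test was made. All comparisons are descriptions of 5 pooled lists that share 1 Ctrl list. By the markers of the line, start sites of 6 of 10 prostate luminal genes were called in Ctrl, among them Hoxb13, Krt8 and Krt18, while those of Tmprss2, Cdh1 and Epcam were among those not called. Start sites of 0 of 6 leukocyte markers and of 4 of 6 fibroblast and endothelial markers (Col1a1, Col1a2, Pdgfra and Pecam1) were called there. Over all coding genes the share with a called start site in Ctrl was 58.1%.

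ATAC-seq maps DNA that a transposase can reach, which in practice means promoters, enhancers and other regulatory elements free of nucleosomes. Cisplatin and oxaliplatin are square-planar platinum complexes that bind mainly to guanines and crosslink DNA. They differ in the ligands around the platinum, which are ammines and chlorides in cisplatin and a diaminocyclohexane and an oxalate in oxaliplatin. Transcription factors recognise short sequences in open chromatin. AP-1 factors (Jun, Fos) and NF-κB respond to stress and cytokines, interferon regulatory factors bind the ISRE, p53, whose site is a pair of decamers, responds to DNA damage, and receptors for glucocorticoids, progesterone and related steroids share one inverted-repeat element, the steroid receptor element.

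Sequences of single platinum-only regions are shown first, because several results below rest on short matches at their summits. They are reference sequence of mm10 (C57BL/6J), plus strand, while the cells are of FVB origin, so single bases may differ. Capitals mark the match to the named consensus. Among the regions considered for display, the first 3 are the strongest regions with a steroid receptor element, and the next 3 are the strongest with an NF-κB, ISRE core or p53 decamer match. The Lncpint sequence is the strongest platinum-only region, with its AP-1 match in capitals. The last pair was chosen after values were seen, for a level far lower with Cispl than Oxali (Ranbp9) and far higher with Oxali + IFNγ than Oxali (Drosha).
Tns2 start site, chr15:102102626-102102686: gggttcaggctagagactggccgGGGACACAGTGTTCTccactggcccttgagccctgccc
Man1a2 intron, chr3:100682933-100682993: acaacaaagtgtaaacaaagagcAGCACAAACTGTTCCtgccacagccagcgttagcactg
Brca1 intron, chr11:101549028-101549088: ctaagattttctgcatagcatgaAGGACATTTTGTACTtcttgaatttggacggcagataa
near Irf2bp2, NF-κB, chr8:126595409-126595469: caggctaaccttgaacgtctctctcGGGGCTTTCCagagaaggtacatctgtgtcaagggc
near Klf9, ISRE core, chr19:23136613-23136673: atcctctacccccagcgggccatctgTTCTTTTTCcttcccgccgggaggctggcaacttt
near Arl4d, p53 decamer, chr11:101696484-101696544: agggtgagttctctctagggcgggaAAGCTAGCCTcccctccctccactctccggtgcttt
Lncpint intron, AP-1, chr6:31083807-31084007: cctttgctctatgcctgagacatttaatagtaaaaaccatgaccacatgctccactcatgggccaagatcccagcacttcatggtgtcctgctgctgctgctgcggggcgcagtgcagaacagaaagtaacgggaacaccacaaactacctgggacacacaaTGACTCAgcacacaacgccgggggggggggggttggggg
Ranbp9 intron, AP-1 and NF-κB, chr13:43411825-43412025: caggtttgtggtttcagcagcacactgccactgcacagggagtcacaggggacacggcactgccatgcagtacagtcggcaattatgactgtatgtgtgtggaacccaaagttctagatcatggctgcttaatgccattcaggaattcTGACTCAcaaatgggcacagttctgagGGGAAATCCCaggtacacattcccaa
Drosha intron, ISRE core, chr15:12856873-12857073: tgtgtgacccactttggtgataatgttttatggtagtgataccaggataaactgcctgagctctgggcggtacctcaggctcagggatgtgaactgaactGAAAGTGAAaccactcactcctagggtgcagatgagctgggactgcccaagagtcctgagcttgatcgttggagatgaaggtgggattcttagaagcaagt

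The strength of a region is given as its level, the highest MACS2 pileup (the number of extended read ends at the summit, recovered from the deposited fold and p-value) relative to the genome-wide background of that list. This background was 11.3 (Oxali), 13.8 (Cispl) and 12.9 (Oxali + IFNγ), against 12.1 in Ctrl and 9.62 with IFNγ. Since the levels are part of the calls that chose these regions, they are a description. The median pileup over the 23528 regions was 46 with Oxali (interquartile range 35 to 65), 53 with Cispl (40 to 74) and 55 with Oxali + IFNγ (42 to 78). The corresponding median levels were 4.08, 3.85 and 4.26. These are weak regions beside those called in all 5 lists, whose median levels in the same lists were 14.8, 13.7 and 14.8. In Ctrl and IFNγ, the regions called in all 5 lists had lower median levels, 11.4 and 9.77. The Ctrl and IFNγ lists also held fewer intervals, 122298 and 118949. The Oxali, Cispl and Oxali + IFNγ lists held 158621, 174048 and 174709. Whether this bears on the missing calls was not tested. Where the local background equalled the genome-wide one, a pileup of 21 sufficed for a call in Ctrl and one of 18 for a call after IFNγ. A q-value of at most 0.01 was reached by 96.8% (Oxali), 98.8% (Cispl) and 98.4% (Oxali + IFNγ) of the regions, and by 94.5% in all 3. The background for the last share was 98.2% of all regions that the 3 lists called.

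**Figure D1:**
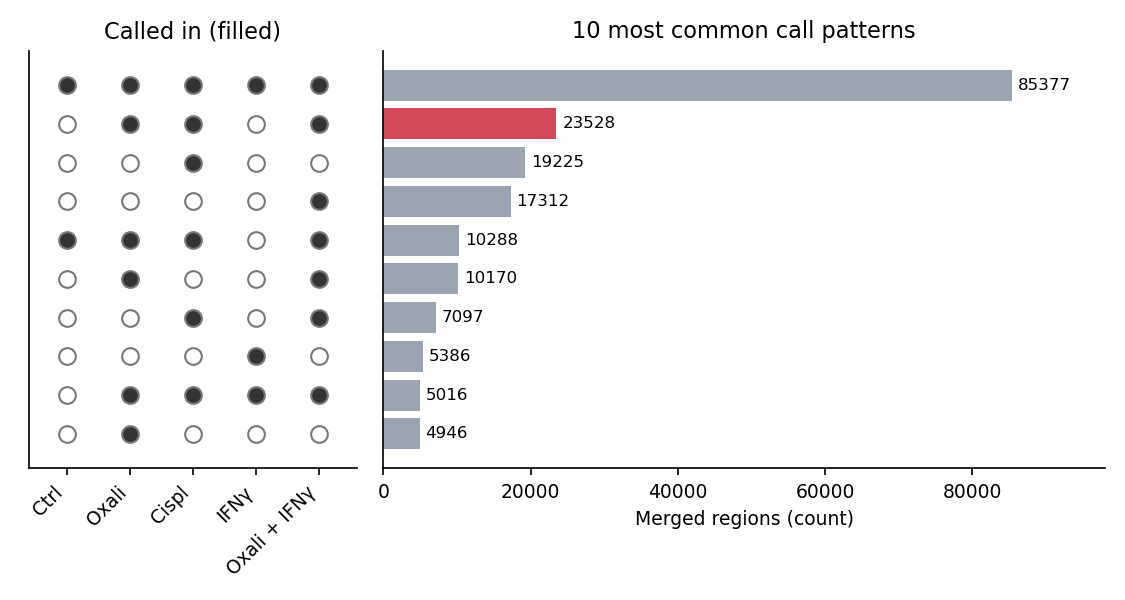
Number of merged regions (bars, x axis) for the 10 most common combinations of calls, with filled circles marking the lists (Ctrl, Oxali, Cispl, IFNγ, Oxali + IFNγ) that called them. The platinum-only combination (red bar) holds 23528 regions and is second after the 85377 regions called in all 5 lists.

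Between any 2 of the 3 lists, most platinum-only regions had levels within 2-fold of each other. With IFNγ added to oxaliplatin, the level was higher than with Oxali alone in 56.6% of regions (95% Wilson interval, 56.0 to 57.2), against 48.9% of all regions called in both lists, and the median log2 difference was 0.05. Beyond 2-fold there were 128 regions higher and 37 lower (0.70%), against 387 and 367 of the 136849 regions called in both lists (0.55%). Cisplatin against oxaliplatin at the same 2 µM and 48 h spread more widely. The level was higher with Cispl than Oxali in 43.4% of regions (42.7 to 43.99) against 40% of all regions called in both, and the median log2 difference was -0.08. Here 430 regions were over 2-fold higher with Cispl and 1037 over 2-fold lower, together 6.24% of the regions, against 1935 and 3539 of the 129321 regions called in both lists (4.23%). The direction of the median and the surplus of lower regions depended on the scaling: with lists scaled to regions called in all 5, the level was higher with Cispl in 52.7% of regions, and 655 were over 2-fold higher and 703 over 2-fold lower. Cispl against Oxali + IFNγ spread most widely, with 496 regions over 2-fold higher and 1584 over 2-fold lower. These were 8.84% of the regions, against 5.65% of all regions called in both lists. The level was higher with Cispl in 40.3% of regions, and in 48.5% with lists scaled to regions called in all 5. The highest of the 3 levels was that with Oxali + IFNγ in 41.6% of regions, with Cispl in 30.6% and with Oxali in 27.8%. In regions called in all 5 lists these shares were 31.7%, 27.6% and 40.7%. With the other scaling, added after seeing the data, Cispl led, and the platinum-only shares were 37.2%, 39.4% and 23.4%, against 27.6%, 38.9% and 33.5%.

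**Figure D2:**
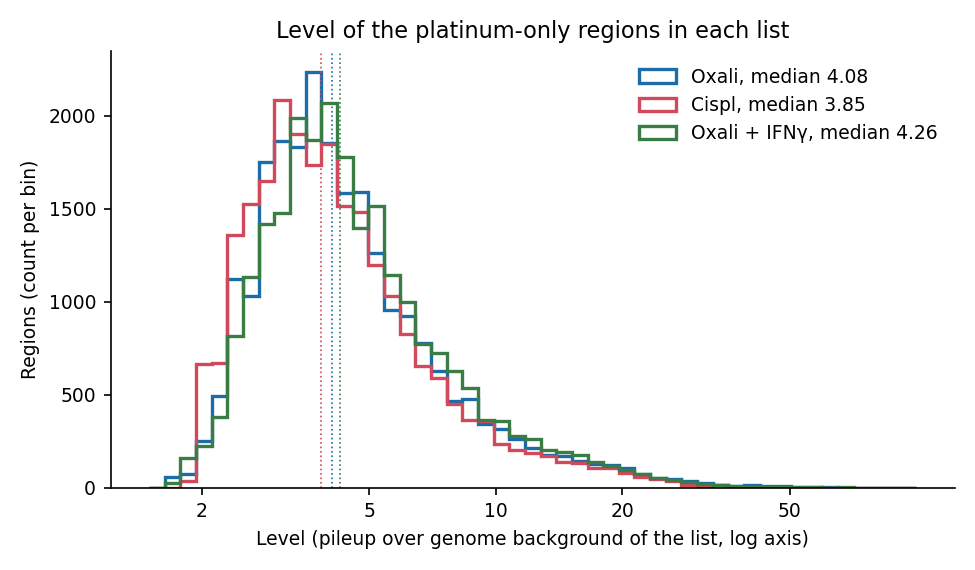
Distribution of the level (pileup relative to genome-wide background, log axis) of the 23528 platinum-only regions in the Oxali, Cispl and Oxali + IFNγ lists, as counts per bin (y axis) with dotted lines at the medians. The 3 curves largely overlie, with medians of 4.08, 3.85 and 4.26.

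Of 16 consensus sequences searched, the steroid receptor element had the largest excess in platinum-only regions, 2.16 times its share in all merged regions. Within 100 bp of the summit an exact match was found in 788 of 23528 regions, or 3.35% (3.13 to 3.59). The share was 1.55% of all merged regions and 1.51% of regions called in all 5 lists. In 9629 regions called in all 5 lists with a level inside the interquartile range of that of the platinum-only regions it was 0.53%, and in the Ctrl and IFNγ combination it was 1 of 1555 regions (0.06%). The reversed, not complemented, pattern served as a negative control and was found 0.83 times as often as in all merged regions. Of the 31 combinations of calls, the platinum-only one had the highest share. The next were regions called in Ctrl and the 3 platinum lists but not with IFNγ (2.76%, 2.46 to 3.10) and regions called with Oxali and Cispl alone (2.33%, 1.87 to 2.91). Among regions called in the 3 platinum lists, the element was thus in 3.35% and 2.76% of those with no IFNγ call, and in 0.74% (called with IFNγ, not in Ctrl, n = 5016) and 1.51% of those with one. The IFNγ list was the shallowest. At its depth 23385 of the platinum-only regions would still be called in the 3 platinum lists, and 3.34% of them held the element. Only the platinum lists were rescaled, so how close these regions came to a call with IFNγ is not shown.

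Regions with the element were also somewhat stronger. Their median level was 4.53 (Oxali), 4.58 (Cispl) and 4.42 (Oxali + IFNγ), against 4.08, 3.85 and 4.26 in the 22740 regions without it. In 4 bins of platinum-only regions from weak to strong, the share with the element was 2.82%, 2.86%, 3.24% and 4.50%. Regions called in all 5 lists had 0.41%, 0.41%, 0.59% and 1.68% in the same level bins. In 80.1% of the 788 regions the match lay within 50 bp of the summit, with a median distance of 24 bp. For comparison this share was 97.8% for CTCF, 76.5% for AP-1, 60.8% for NF-κB and 51.1% for the p53 decamer. The 788 regions were spread over 20 chromosomes, 48.0% of them in introns, 40.1% between genes and 6.22% at start sites.

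The strongest 3 with the element are the sequences printed first. The Tns2 region (chr15:102102562-102102737) lies at a start site of the gene for tensin 2, a focal adhesion protein, and had pileups of 439 (Oxali), 543 (Cispl) and 424 (Oxali + IFNγ). Its local backgrounds were high, at 262, 287 and 245, and a Ctrl interval lay 381 bp away. In an intron of Man1a2, which encodes a Golgi mannosidase (chr3:100682891-100683119), the pileups were 279, 344 and 310 in the same order. The region in an intron of Brca1, a DNA repair gene (chr11:101548888-101549118), had 330, 321 and 323. Of 15 genes that are textbook targets of steroid receptors, listed after values were seen (among them Fkbp5, Tsc22d3, Per1, Sgk1, Klf9, Zbtb16, Dusp1, Errfi1, Cebpd, Tat, Tmprss2, Pbsn, Ndrg1 and Homer2), all 15 had a platinum-only region in the gene or within 50 kb, as did 16122 of 21938 coding genes. One of these regions held the element, in an intron of Dusp1, a MAP kinase phosphatase (chr17:26531871-26532133, pileups 105, 153 and 151).

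Of the 16 sequences, 7 were found in a larger share of platinum-only regions than of all merged regions, with intervals that did not overlap. This count was 6 in 4 of the alternative settings and 10 without regions within 500 bp of a Ctrl or IFNγ interval. Besides the steroid receptor element these were RUNX (TGTGGTT), NF-κB, the ISRE core (GAAANNGAA), the NF1 core (TTGGCA), TEAD (GGAATG) and C/EBP (TTGCNNAA). RUNX was in 13.5% of platinum-only regions (13.1 to 14.0), against 10.3% of all, 8.85% of those called in all 5 lists and 11.4% of those of like level. NF-κB was in 3.37% (3.15 to 3.61), against 2.55%, 2.40% and 1.64%. Its reversed pattern had a ratio to all merged regions of 0.97, where NF-κB itself had 1.32. The ISRE core was in 6.69% (6.38 to 7.02) against 5.56% of all, with ratios of 1.20 for the element and 1.09 for its reverse. For C/EBP the reversed pattern had the larger ratio, 1.14 against 1.07, so its excess was not particular to the element. Unlike the steroid receptor element, NF-κB, the ISRE core, RUNX and TEAD were more common in some other combinations of calls. By share, platinum-only regions ranked 3 of 31 for NF-κB (highest with Oxali and Oxali + IFNγ alone, 4.96%), 5 for the ISRE core (highest with Oxali + IFNγ alone, 8.64%) and 7 for both RUNX (highest in Ctrl, Oxali and Cispl, 21.3%) and TEAD. The remaining excesses were small, with TEAD in 15.1% against 13.9% of all and the NF1 core in 13.1% against 11.5%.

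Some sequences typical of promoters and boundaries were less common than in all merged regions. CTCF, the insulator factor, had a match in 1.70% of platinum-only regions, 3.11% of all and 5.85% of those called in all 5 lists. The SP/KLF sequence GGGCGGG was in 2.01%, 5.20% and 9.44% in the same order, and the ETS sequence CCGGAAG in 0.82%, 1.88% and 3.26%. In regions of like level the shares were 2.62% for CTCF, 3.43% for SP/KLF and 1.04% for ETS, the last with an interval (0.85 to 1.26) that overlapped that of platinum-only regions. CTCF was lower still in regions called in Ctrl and IFNγ alone (0.90%) and in all 4 treated lists but not Ctrl (0.76%). AP-1 (TGANTCA) was common and near the background, at 21.6% against 21.02% of all and 24.1% of those called in all 5 lists. The p53 decamer was in 7.16% against 6.77%, and 2 decamers joined without a spacer, a pattern searched after values were seen, in 3 of 23528 against 14 of 211107 merged regions. The E-box of Myc (CACGTG) was in 3.59% against 3.81% of all. The FOX sequence TGTTTAC, bound by forkhead factors, was in 4.53% against 4.37%. The GATA sequence AGATAA was in 5.95% against 6.48%, and the CREB/ATF sequence TGACGTCA in 0.33% against 0.47%. Matches were exact, on both strands, within 100 bp of the summit, and those of different sequences could overlap. In 28.9% of platinum-only regions none of the 16 was found.

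**Figure D3:**
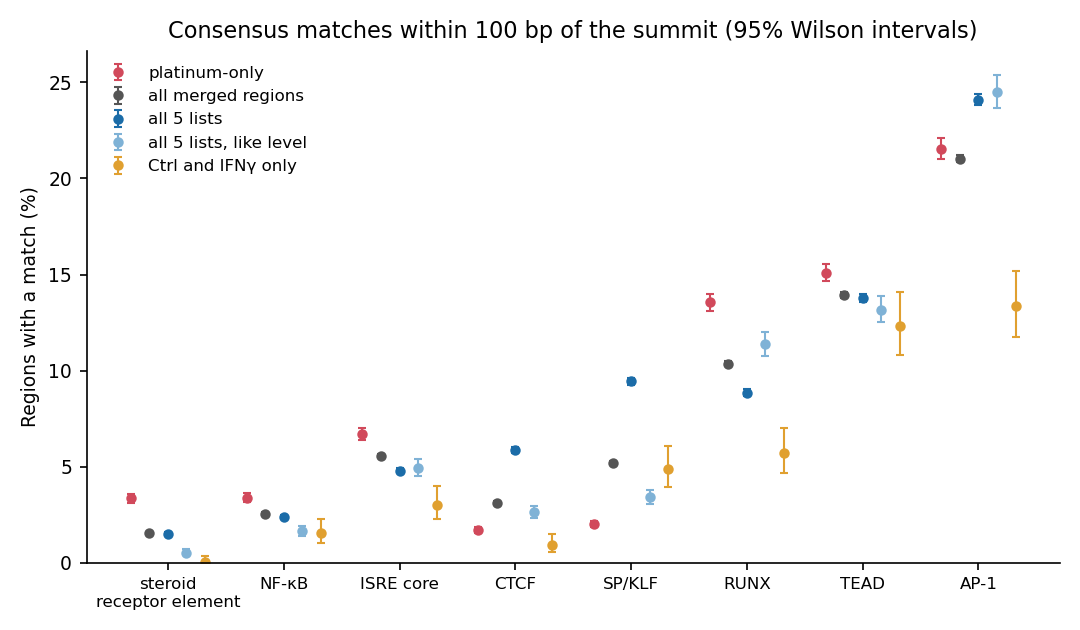
Share of regions with an exact match within 100 bp of the summit (y axis, %) for 8 consensus sequences, in platinum-only regions (red), all merged regions (grey), regions called in all 5 lists (dark blue), such regions of like level (light blue) and regions called in Ctrl and IFNγ alone (orange), with 95% Wilson intervals. The steroid receptor element is in 3.35% of platinum-only regions and in 0.06% to 1.55% of the others shown, while CTCF and SP/KLF are lower than in regions called in all 5 lists.

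Although the drugs were matched in dose and time, the regions that differed most between them had different sequence content. Of the 1037 platinum-only regions over 2-fold lower with Cispl than Oxali, 47.1% held AP-1 (44.04 to 50.1), against 8.14% (5.91 to 11.1) of the 430 regions over 2-fold higher with Cispl and 20.6% of the 22061 regions in between. NF-κB followed the same order, with 8.87% (7.29 to 10.8), 1.86% (0.95 to 3.63) and 3.15%. TEAD was in 21.4%, 10.5% and 14.9%. The steroid receptor element was in 9.07% (6.71 to 12.2) of the regions higher with Cispl, against 3.25% of those within 2-fold and 3.09% (2.19 to 4.32) of those lower with it. For the ISRE core the intervals overlapped, at 5.59% and 6.28%. These comparisons were chosen after values were seen. With lists scaled to regions called in all 5, the lower group held 703 regions with AP-1 in 48.4% and the higher group 655 with AP-1 in 10.2%. The 2-fold split was not made for all regions called in both lists. A like contrast in AP-1 lay in other combinations of calls. AP-1 was in 33.5% of regions called with Oxali and Oxali + IFNγ alone and 21.4% with Oxali alone. It was in 14.1% with Cispl and Oxali + IFNγ alone and 10.3% with Cispl alone. For NF-κB these shares were 4.96%, 2.18%, 2.47% and 1.49% in the same order.

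**Figure D4:**
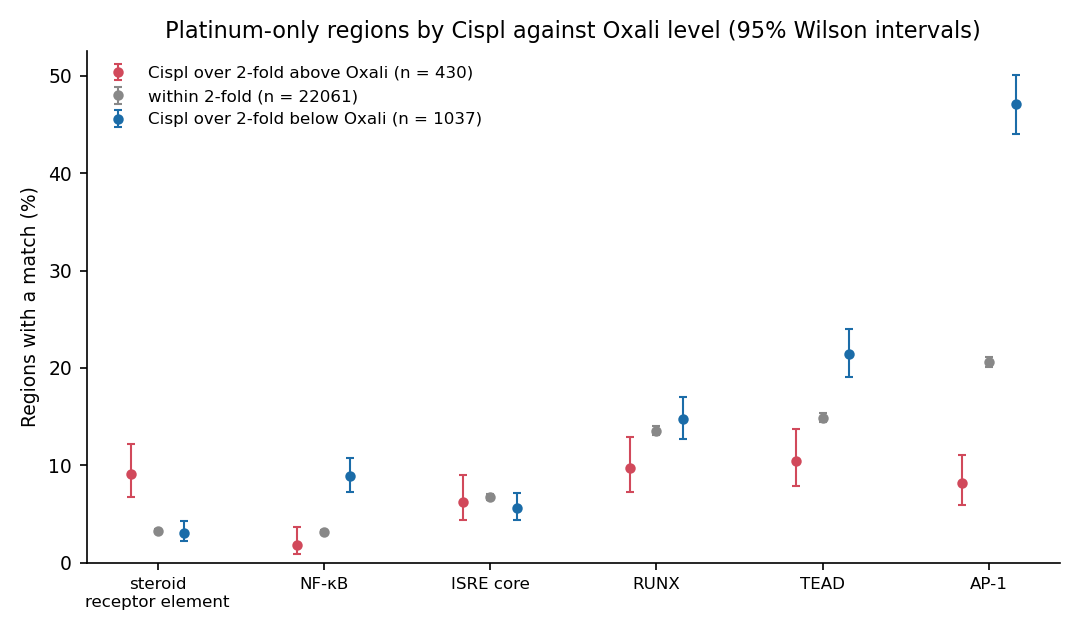
Share of platinum-only regions with an exact consensus match (y axis, %, with 95% Wilson intervals) for 6 sequences, split by whether the level with Cispl was over 2-fold above that with Oxali (red, n = 430), within 2-fold (grey, n = 22061) or over 2-fold below it (blue, n = 1037). AP-1 goes from 8.14% to 47.1% from the first to the last group, and the steroid receptor element from 9.07% to 3.09%.

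The Ranbp9 region printed above (chr13:43411700-43412552, intronic in a gene for a scaffold protein) is of the AP-1 kind, with pileups of 172 (Oxali), 40 (Cispl) and 179 (Oxali + IFNγ). The largest difference of this direction was in an intron of Gm45844 (chr7:7271065-7272218), with 215, 48 and 200. In the other direction the largest was in an intron of Ncoa2, which encodes a coactivator of nuclear receptors (chr1:13157159-13158096), with 31 (Oxali), 176 (Cispl) and 56 (Oxali + IFNγ). A region in an intron of Patl2, close to B2m, the gene for the light chain of class I molecules (chr2:122155393-122155826), had 25, 130 and 36. Adam17, a sheddase, held one at chr12:21362757-21363592 with 28, 141 and 44. These are single pooled values, and the regions were taken for their differences.

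When IFNγ was added to oxaliplatin, the 128 regions that were over 2-fold higher held the ISRE core in 25.0% of cases (18.3 to 33.2), against 6.60% (6.28 to 6.92) of the 23363 regions within 2-fold. In the 37 regions that were over 2-fold lower it was in 1 region. The largest of these rises was in the intron of Drosha, a microRNA-processing nuclease (chr15:12856769-12857595), printed above, with 39 (Oxali), 102 (Cispl) and 145 (Oxali + IFNγ). An intronic region of Bach2, a transcription factor of lymphocytes (chr4:32430170-32430555), had 27, 46 and 94. By the list with the highest level, the ISRE core was in 8.19% of regions highest with Oxali + IFNγ, 5.23% of those highest with Oxali and 5.98% of those highest with Cispl. For NF-κB these shares were 4.74%, 3.01% and 1.85%. With lists scaled to regions called in all 5 they were 8.39%, 5.24% and 5.95% for the ISRE core and 5.02%, 3.04% and 2.03% for NF-κB. Sequence shares by 2-fold change were not taken over all regions called with both Oxali and Oxali + IFNγ.

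Platinum-only regions were mostly far from start sites. Start-site regions, overlapping 1 kb on either side of an annotated start, made up 7.40% of them (7.08 to 7.75), against 12.4% of all merged regions and 19.6% of those called in all 5 lists. Regions called in all 5 lists with a like level had 6.93% (6.44 to 7.45), and the Ctrl and IFNγ combination 6.75%. In the strongest of 4 level bins of platinum-only regions, 12.5% were at start sites, and in the other 3 bins 5.48% to 5.94%. Introns held 47.6%, intergenic sequence 41.6% and exons 3.40%. The median width was 336 bp and the median distance to a coding start site 32.4 kb, against 18.2 kb for regions called in all 5 lists, and 21.3% lay over 100 kb from one. Median GC content around the summit was 47.8%, against 49.3% of all merged regions. The nearest Ctrl interval was a median of 5367 bp away, with 12.3% of the regions closer than 500 bp and 8.98% farther than 50 kb. In 15.8% of the regions more than 50% of the summit window was masked as repeats, against 17.2% of all merged regions, 12.9% of those called in all 5 lists and 26.5% of such regions of like level.

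By level over genome background, the strongest platinum-only regions lay on a high local background and close to regions called in Ctrl. The highest lay in an intron of Lncpint, a long noncoding RNA (chr6:31083820-31083997), with pileups of 912 (Oxali), 819 (Cispl) and 904 (Oxali + IFNγ). Its local background with Oxali was 438, and a Ctrl interval lay 1459 bp away. Next were an intron of Sfi1, a centrosome gene (chr11:3138263-3138791, pileups 680, 729 and 907), and a site 55258 bp from Eda2r, a receptor of the tumour necrosis factor family (chrX:97432474-97432792, pileups 559, 766 and 672). A second Lncpint region (chr6:31082576-31082923) had 1013, 647 and 969. Others of the leading 12 lay near Pim3, Nanos3, Klf9, Id2, Leprot and Arl4d. All 12 were within 3762 bp of a Ctrl interval, with a median of 546 bp, and 11 of them had a smaller fold over their local background than the median platinum-only region. At coding start sites the strongest were those of Tns2, Flnc (filamin C), Them6, Xpo1 (the nuclear export receptor) and Phf12, with pileups with Oxali of 339 to 530. Their local backgrounds with Oxali were 131 to 276, and Ctrl intervals lay 85 to 473 bp away.

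Ranked by fold over the local background, which was done after values were seen, other regions led. The first was in an intron of Pola1, a DNA polymerase subunit (chrX:93327695-93328746), with pileups of 231 (Oxali), 278 (Cispl) and 240 (Oxali + IFNγ) over a background of 11.3 with Oxali. The nearest Ctrl interval was 45530 bp away. The next, in an intron of Manba, a lysosomal mannosidase gene (chr3:135540373-135541408), had 202, 293 and 207, with a Ctrl interval at 2517 bp. An intron of Cdkal1 (chr13:29627256-29628105) had 185, 217 and 216, with NF-κB and ISRE core matches at the summit and a Ctrl interval at 1687 bp. A region 52426 bp from Gata5 (chr2:180387125-180387920) had 197, 200 and 242, with a Ctrl interval at 11985 bp. A region between genes 339309 bp from Lcorl (chr5:46196924-46197686), with an AP-1 and a steroid receptor element match, had 212, 187 and 270, and no Ctrl interval lay within 149623 bp of it. The smallest fold of a region over its local background in the 3 lists had a median of 2.71 (interquartile range 2.27 to 3.39) and reached 17.3.

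Values at the edge of the selection were close on both sides. The most weakly called platinum-only region, in an intron of Cd82 (chr2:93443784-93444034), had pileups of 28 (Oxali), 41 (Cispl) and 38 (Oxali + IFNγ) and a smallest -log10 p of 2.00. A region in an intron of Idh3a (chr9:54602409-54603141), left out for a Ctrl call with a -log10 p of 2.09, had a pileup of 21 in Ctrl and of 31, 40 and 40 in the 3 platinum lists.

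Along the genome the regions were scattered with a slight tendency to sit together. The nearest other merged region was also platinum-only for 16.3% (15.8 to 16.8), against their share of 11.1% among all regions, and for 14.5% when neighbours within 1 kb were left out. The same comparison gave 44.2% against 40.4% for regions called in all 5 lists, 3.35% against 2.38% for those called in all 4 treated lists but not Ctrl, and 9.32% against 0.74% for those called in Ctrl and IFNγ alone. With neighbours within 1 kb left out, these 3 groups had 46.9%, 2.57% and 2.32% in the same order. The weakest of the 4 level bins of platinum-only regions had a platinum-only neighbour in 18.04% of cases and the strongest in 13.1%. Chromosome shares ran from 8.88% on chromosome 11 to 12.8% on chromosome 18, with 12.2% on X and 0 of 90 regions on Y (upper Wilson bound 4.09%). In 1535 windows of 1 Mb with at least 50 regions, the share had a median of 10.8%, and 90% of windows lay between 5.08% and 19.7%. The highest, 28.6%, was on chromosome 11 from 11 to 12 Mb, which holds Ikzf1, a lymphoid transcription factor, and Grb10, an adaptor of growth factor receptors. The window from 75 to 76 Mb on chromosome 5, with the receptor kinase genes Kit, Kdr and Pdgfra, had 26.2%. The most regions in a window, 42, were at 35 to 36 Mb on chromosome 2.

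Runs of at least 3 platinum-only regions with gaps of at most 10 kb numbered 627 and held 2088 regions (8.87%), and the largest held 7. In and upstream of Arhgap8, which encodes a GTPase-activating protein and starts at base 84720052 of chromosome 15 (run at chr15:84712425-84732691), 7 of 12 merged regions over 20.3 kb were platinum-only and none was called in Ctrl or with IFNγ. Their pileups were 25 to 65 with Oxali, 28 to 88 with Cispl and 26 to 67 with Oxali + IFNγ. The other run of 7 was at Apobec2 and Tspo2 (chr17:48427073-48453802), with 26 to 58, 33 to 71 and 33 to 80. At Lgals3, the gene for galectin-3 (chr14:47361737-47385794), 6 platinum-only regions lay among 6 regions called with IFNγ, and one of them reached 246, 205 and 311. Runs of 6 were also at Inpp4a, a phosphoinositide phosphatase gene (chr1:37306839-37322333), and at the gasdermin genes Gsdmc3 and Gsdmc4 (chr15:63877658-63898144). A run with no coding gene (chr9:87556790-87576642) had 6 of its 7 regions platinum-only.

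**Figure D5:**
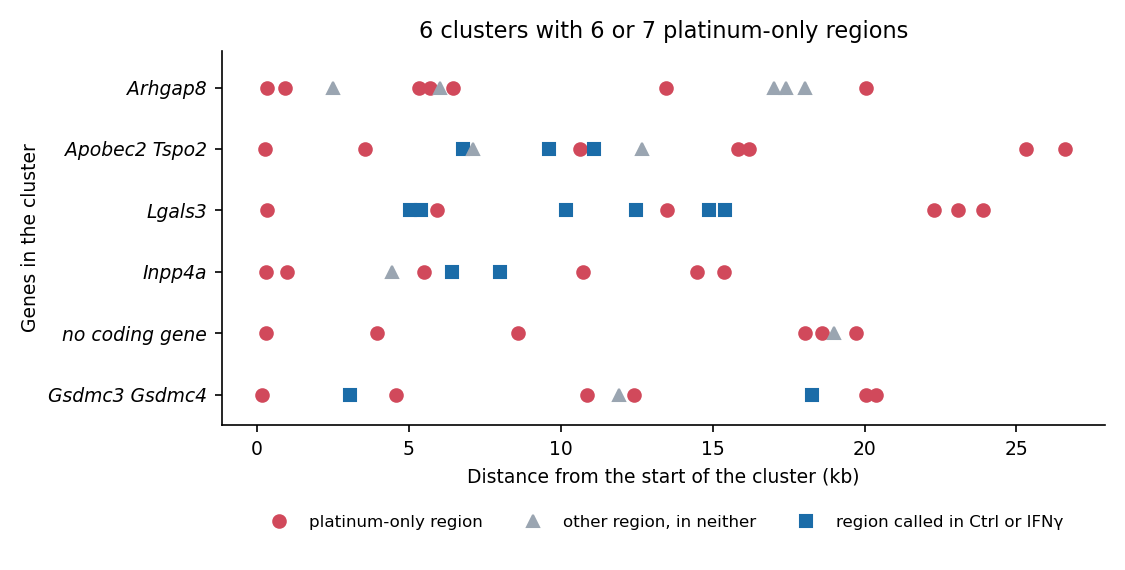
Positions (x axis, kb from the start of the run) of platinum-only regions (red circles), regions called in Ctrl or with IFNγ (blue squares) and other regions (grey triangles) in 6 of the 8 runs with at least 6 platinum-only regions, ties taken by level, named by the coding genes they overlap (y axis). At Arhgap8 and in the run with no coding gene no region was called in Ctrl or with IFNγ, while at Lgals3 platinum-only regions lie among regions called in them.

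A platinum-only region lay in or within 5 kb of 7804 of 21938 coding genes (35.6%) and at a start site of 941 (4.29%). The share rose with gene length, from 15.2% of genes under 10 kb to 83.4% of genes over 300 kb, so long genes lead any count. Most regions were at the gene model Gm20388 on chromosome 8, which spans 4435 kb and many other genes, with 93 of 1167 merged regions. The Fgfr2 model, which spans 2961 kb and other genes as annotated, had 26 of 481, Magi2 21 of 86, Gm37240 19 of 202, Ttc28 17 of 94 and Mecom, a zinc-finger transcription factor gene, 17 of 69. Gm42416 and Gm37013, overlapping models at the protocadherins on chromosome 18, had 17 each and share them. Per length, among genes with at least 5, the leading genes were Lrrc32 (5 of 15 regions), which encodes a receptor that holds latent TGF-β, Lgals3 (5 of 14), Tm6sf1 (6 of 12), Rsph1 (5 of 14) and Traf3ip3 (5 of 12).

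Gene lists chosen with earlier results of these data known are read against that 35.6%, and per length against 1.1496 platinum-only regions in 100 kb over all coding genes. By gene count and per length, the direction differed for class I presentation and crosslink repair. Of the merged regions at all coding genes, 9.82% were platinum-only. This share was higher for senescence-associated secretion (14.6%) and histone acetylation (12.7%). It was lower for interferon signalling (9.43%), crosslink repair (8.79%), epithelial to mesenchymal transition (8.21%) and class I presentation (7.95%). AP-1 and ATF factors (6.36%), NF-κB signalling (5.88%), YAP and TEAD targets (4.02%) and p53 targets (2.53%) were lower too. Per 100 kb the values were 2.92 for senescence-associated secretion, 2.13 for AP-1 and ATF factors, 1.49 for both class I presentation and interferon signalling, 1.32 for epithelial to mesenchymal transition, 1.30 for histone acetylation and 1.29 for NF-κB signalling. Crosslink repair (1.05), YAP and TEAD targets (0.84) and p53 targets (0.57) were below all coding genes. Of 17 genes of class I antigen presentation, 4 had a platinum-only region (23.5%, with a median gene length of 5.78 kb against 17.4 kb of all coding genes), namely Nlrc5, H2-D1, Pdia3 and B2m. Nlrc5, the transcriptional activator of class I genes, had 4 of its 26 merged regions. One of them lay at an internal start site of the gene (chr8:94469456-94470292), with pileups of 75 (Oxali), 95 (Cispl) and 74 (Oxali + IFNγ) and an AP-1 match. Another was in an intron (chr8:94508302-94508744), with 71, 82 and 58. A further intronic region (chr8:94442859-94444271) was higher with IFNγ added, with 46, 41 and 129, and held an NF-κB match. The last (chr8:94493017-94493714) lay 94 bp from a Ctrl interval and had 150, 161 and 189. Its levels differed less, at 13.3, 11.7 and 14.6. The Psmb9 to Tap2 locus and Nfkb1 had none. Interferon signalling genes had one in 11 of 27 cases (40.7%), and none lay at a start site. Gbp2, an interferon-induced GTPase, held an intronic region (chr3:142633515-142634147) with 88, 89 and 131. Downstream of Ifngr2, which encodes a chain of the IFNγ receptor, 2 regions were found, the stronger (chr16:91568961-91569337) with 62, 59 and 64 and with AP-1 and steroid receptor element matches.

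For NF-κB signalling the count was 8 of 22 genes (36.4%), close to the background. Tnip1 held a region with an NF-κB match and pileups of 143, 215 and 235 (chr11:54961461-54961775), and Nfkbie one with a match and 101, 96 and 188 (chr17:45557783-45558368). The regions of the related genes Nfkbib (139, 213 and 164) and Nfkbiz (189, 167 and 176) had no NF-κB match. The p53 targets had 4 of 23 (17.4%), Sesn1, Xpc, Fas and Cdkn1a. The region 2152 bp from Cdkn1a, the cell cycle inhibitor p21 (chr17:29088476-29088827), was weak, with 41, 39 and 45, and held a p53 decamer. Genes of DNA crosslink repair, with a median length of 47.7 kb, had 10 of 23 (43.5%), 4 of them at start sites, among them Fanca, Rev1 and Fancg. The Fanca region (chr8:123317936-123318113) had 222, 247 and 224 and lay 78 bp from a Ctrl interval, and that of Rev1 (chr1:38130398-38130610) 220, 218 and 182 at 77 bp.

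Histone acetylation, which the study addresses, had a region in 12 of 19 genes (63.2%), and its genes are long, with a median of 36.0 kb. Hdac9, a class IIa deacetylase, had 11 of its 28 merged regions, the strongest of them (chr12:34521381-34521764) with 72, 96 and 68, and no Ctrl interval within 136573 bp. Hdac4 had 7 of 46. Of the acetyltransferase genes, Ep300, Kat2b, Kat6a, Kat6b and Kat7 had 1 each, and Crebbp, Kat2a, Kat5 and Kat8 had 0. AP-1 and ATF genes had 6 of 14 (42.9%), with an exonic region of Jun (chr4:95049972-95050211) at 493, 398 and 480 in the order Oxali, Cispl and Oxali + IFNγ, and one at a start site of Atf4 with 322, 322 and 334. Genes of the senescence-associated secretion had 8 of 22 (36.4%), including 5 regions at Igfbp7, and those of epithelial to mesenchymal transition 9 of 21 (42.9%), including Col4a2 with 4 regions and Tgfb2, Tgfbi, Tgfbr1 and Tgfbr2 with 3 each, while Tgfb1 had 0 of 7. YAP and TEAD genes had 4 of 13 (30.8%). Of the cell type markers, prostate luminal genes had 4 of 10, leukocyte genes 4 of 6 and fibroblast and endothelial genes 3 of 6, all with few genes. Lyz2, a myeloid lysozyme whose start site was not called in Ctrl, had a platinum-only region there with 57, 56 and 52 (chr10:117281932-117282419).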

How the data were processed

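ATAC-seq data of Myc-CaP cells were used, with 10 libraries in 5 groups of 2. Per the labels and the study's methods, the authors trimmed reads with cutadapt, aligned them to mm10 with Bowtie2 2.2.8, kept a mapping quality of at least 30, removed duplicates, mitochondrial and blacklisted sequence, pooled the 2 libraries of a group and called peaks with MACS2 2.1.0 at p of 0.01 without a control library. The deposited fold is the ratio of pileup to local background. MACS2 derived the −log10 p-value that the authors deposited from a Poisson model of the pileup, and the −log10 q-value by adjusting it. The deposited score column was not used. The Cispl list ends at a −log10 p of 2.99 (peak number 300000), so its weak regions are missing.

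Distinct intervals of the 5 lists were merged where they overlapped by 1 bp (Python 3.11.15, numpy 2.4.6, pandas 2.3.3, scipy 1.17.1). The whole-number pileup and background were solved from fold and p, which succeeded for 100% of peaks. Levels are the highest pileup of a region over the genome background of its list, which is proportional to depth. Genome backgrounds ranged from 9.62 to 13.8, and total read counts were not given. Genes came from GENCODE M21 and sequence from GRCm38.p6, both of the build mm10. No control for GC content was made. Intervals of shares are 95% Wilson intervals for counting error alone, and regions are not replicates. The steps were tested on simulated data.

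The regions, the gene lists and the consensus sequences were chosen with earlier results of these data known. Sequences on chromosome 18 were not considered for display. Items were named by the rules set for them: the 12 strongest regions, the 5 strongest at coding start sites, the 8 genes with the most regions and the 5 densest, 6 of the largest runs, up to 4 genes per list, the regions at the edge of the selection and the loci of the study. Some items that these rules name are not reported here. Alternatives of the call threshold, overlap, distance, depth, scaling and windows were run.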

Additional observations from a re-analysis of the deposited data

How the results depend on the processing

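No paired analysis was possible because each deposited list pools both libraries of its group, so leaving out single replicates was not run either. With lists scaled to regions called in all 5, the share of regions higher with Cispl than Oxali went from 43.4% to 52.7%, on the other side of 50%. This share was 41.9% with a q-value of at most 0.01 in the 3 platinum lists, 42.7% with every list ended at the p of the Cispl list and 42.7% where each list had to cover 50% of a region. In that last setting the share higher with Oxali + IFNγ than Oxali was 54.4%, that with a platinum-only neighbour 13.2% and that in runs 5.89%. Without regions within 500 bp of a Ctrl or IFNγ interval, the start-site share was 5.72%, the neighbour share 17.5% and the share in runs 7.53%. The share in runs was 7.97% at the q-value threshold, 3.49% with gaps of at most 5 kb and 52.8% with gaps of at most 50 kb. A start-site window of 2 kb gave 12.6%, and neighbours beyond 1 kb 14.5%. Of the 225 list genes, not all of which were matched in the annotation, 87 had a region within 5 kb, 177 within 50 kb and 12 at start sites. Of 21938 coding genes, 7804 (35.6%), 16122 and 941 (4.29%) did in the same order. The number of regions ran from 18834 (each list covers 50%) to 23565 (every list ended at the p of the Cispl list) and was 23385 at the depth of the IFNγ list. The count of sequences in excess was 6 at the q-value threshold, with the p of the Cispl list, with 50% cover and within 50 bp of the summit, against 7. The steroid receptor element stayed between 3.34% and 3.62% of regions in all settings that searched 100 bp on either side of the summit and was in 2.47% within 50 bp of the summit. With Cispl over 2-fold above Oxali, 655 regions were found in the all-5 scaling, against 430, an alternative added after seeing the data. The cause of these changes was not tested.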
